A study of Mus musculus with 3 samples.

Results

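The genes described here are 10 members of the fibroblast growth factor (FGF) pathway: the ligands Fgf7 and Fgf10, the receptors Fgfr1 and Fgfr2, and 6 genes that ERK signalling is known to switch on (Spry1, Spry2, Spry4, Dusp6, Etv4 and Etv5). They were chosen by name, for their role in the pathway, and all 10 were found among the 24698 genes of the merged count table. Their levels were read in every day and cell state of a culture that turned testis progenitors into Leydig cells, the testosterone-producing cells of the testis. FGF2 was in the medium on all 3 days sampled, so no group was without the ligand.

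Cells came from the testes of adult C57BL/6 mice, 8-12 weeks old, and were sorted for Sca1 on the surface without cKit. They recovered for 18 h in serum, then grew for 3 days with 10 ng/ml each of PDGFAA, PDGFBB and FGF2 and 0.5 µM SAG, an activator of hedgehog signalling. The later medium kept all 4 agents and added 5 mM LiCl2 and 10 µM DAPT, which blocks Notch signalling. The groups were day 4, day 7 and day 14 of this culture, with 1 Drop-seq library per day, so a difference between days, between media and between libraries cannot be told apart. No p-value was computed for any comparison. No library without FGF2 was analysed here.

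FGF ligands bind receptor tyrosine kinases on the cell surface together with heparan sulfate. The active receptor passes its signal through RAS, RAF and MEK to ERK, which drives transcription of its own brakes. Sprouty proteins act on the upstream part of this cascade, the phosphatase DUSP6 removes phosphate from ERK, and the ETS factors ETV4 and ETV5 carry the signal to target genes. In the gonad, FGF signalling is known for its part in testis formation, and FGF2 is a common additive for growing Leydig stem cells.

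After the study's filter the 3 libraries held 2980, 2171 and 973 cells of days 4, 7 and 14, with 12677110, 11627440 and 5324400 UMIs in all and median depths of 2886.5, 3285 and 3272 UMIs per cell. The median mitochondrial share was 1.19%, 1.37% and 2.30%, and its part in the differences between days was not tested. Many cell barcodes were near copies of each other. Of the 6124 cells, 2834 (46.3%) shared the first 11 bases of the barcode with another cell of the same day, in sets of up to 4, and 86.4% to 92.0% of the shared starts fell in 1 cell state. No barcode occurred on 2 days. Levels summed over all cells of a day do not change when such barcodes are joined. Shares of cells do, and levels by cell state can. The sorted marker Ly6a (Sca1) stood at 523, 64.2 and 358 counts per 1000000 UMIs (CPM) on the 3 days, and Kit at 0.789, 0.0860 and 2.07 CPM.

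Cells were clustered without the 10 genes and without the 99 other pathway symbols listed, and the clusters were named from marker lists that the study had picked on these libraries. Differentiating myofibroblast-like cells made up 2223 of the 2980 cells of day 4, and 587 were proliferating progenitor-like. On day 7 the largest states were ECM myofibroblast-like (named for extracellular matrix genes, 1251 of 2171 cells), proliferating progenitor-like (470) and differentiating Leydig-like (314). On day 14 differentiating Leydig-like cells numbered 538 and Leydig-like cells 414 of 973. The 12 genes of the Leydig list, among them Cyp11a1, Hsd3b1 and Insl3, summed to 471, 666 and 12281 CPM on days 4, 7 and 14. Differentiating Leydig-like cells held 656 CPM of that list on day 7 and 2789 CPM on day 14. ECM myofibroblast-like cells of day 7 held 554 CPM. In these states of day 7 the 13 genes of the differentiating Leydig list summed to 7191 and 2161 CPM. The main cluster of differentiating Leydig-like cells on day 7 passed 7 of these markers. In it the median log2 ratio of markers over other cells was 0.86 for the differentiating Leydig list and 0.4 for interstitial progenitor markers. With pathway genes kept in the clustering, the cluster led by Eln was unnamed, and these ratios were 0.76 and 1.03. The 10 interstitial progenitor markers summed to 2057 CPM in differentiating Leydig-like cells of day 7 and 623 CPM in ECM myofibroblast-like cells. Interferon response genes such as Ifit3 and Irf7 were among the leading genes of the differentiating myofibroblast-like clusters. A cluster of 55 cells led by germ cell and macrophage genes was left unnamed.

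The windows of 250 bases before the start sites are shown for Dusp6, Spry1 and Fgf7, because these were the 3 genes called lower in Leydig-like than in differentiating Leydig-like cells. The sequences are those of RefSeq on GRCm38.p6, read 5′ to 3′ on the strand of the gene, which was the plus strand for all 3. Capitals mark the only match to the motifs searched on both strands: AGGAAG and CCGGAA for ETS factors, TGANTCA for AP-1 and TGACGTCA for CREB. The windows lie at chr10:99262981-99263230 for Dusp6, chr3:37639697-37639946 for Spry1 and chr2:126034408-126034657 for Fgf7.
Dusp6: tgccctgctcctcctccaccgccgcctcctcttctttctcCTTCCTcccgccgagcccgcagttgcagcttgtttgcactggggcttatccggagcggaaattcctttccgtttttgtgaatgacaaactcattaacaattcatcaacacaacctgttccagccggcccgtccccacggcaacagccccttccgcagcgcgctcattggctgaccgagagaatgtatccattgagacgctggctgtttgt
Spry1: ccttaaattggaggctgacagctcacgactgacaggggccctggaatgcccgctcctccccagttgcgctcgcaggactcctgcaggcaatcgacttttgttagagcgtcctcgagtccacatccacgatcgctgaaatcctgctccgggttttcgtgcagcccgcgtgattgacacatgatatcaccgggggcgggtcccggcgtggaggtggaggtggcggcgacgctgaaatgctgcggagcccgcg
Fgf7: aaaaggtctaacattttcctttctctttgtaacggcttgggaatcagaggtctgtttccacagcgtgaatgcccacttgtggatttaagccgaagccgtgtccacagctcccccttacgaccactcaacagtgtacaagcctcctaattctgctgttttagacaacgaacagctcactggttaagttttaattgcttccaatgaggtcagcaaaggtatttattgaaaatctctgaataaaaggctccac
In the Dusp6 window AGGAAG was found on the minus strand, from -210 to -205 relative to the start. These letters occur in 29.5% of all 32851 windows of this length, CCGGAA in 12.0%, TGANTCA in 6.75% and TGACGTCA in 1.55%. The table used here held 8 windows of 7 of the 10 genes, and 1 other window, that of Fgfr2, held AGGAAG. The GC content was 56.4% for Dusp6, 62.4% for Spry1 and 43.6% for Fgf7, with a median of 52.4% over all windows.

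On GRCm38 Dusp6 lies on chromosome 10 (99263231 to 99267489), Spry1 on chromosome 3 (37639947 to 37644599) and Fgf7 on chromosome 2 (126034658 to 126091185). Fgfr1 lies on chromosome 8 (25518759 to 25575718), Fgfr2 on chromosome 7 (130162451 to 130266808), Fgf10 on chromosome 13 (118714699 to 118792573) and Spry2 on chromosome 14 (105891947 to 105896819). Spry4 is on chromosome 18, Etv4 on chromosome 11 (101769747 to 101785310) and Etv5 on chromosome 16 (22381313 to 22439570). Genes annotated on the opposite strand overlap Fgf7, Fgf10, Fgfr1, Spry1 and Spry4, of which Fam227b, over all of Fgf7, is protein coding. The strand setting of the counting was not given, so reads of these pairs may not be separated. A 3′ tag count gives no level per length, so levels are compared within a gene and not between genes.

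Fgf7 codes for a growth factor that mesenchymal cells make, and it acts on the b splice form of FGFR2. It had 639, 178 and 40 UMIs on days 4, 7 and 14, which is 50.4 CPM (95% Poisson interval 46.6 to 54.5), 15.3 CPM (13.1 to 17.7) and 7.51 CPM (5.37 to 10.2). The level was highest on day 4, and the 3 intervals did not overlap. The ratio of day 7 to day 4 was 0.304 (exact 95% interval 0.256 to 0.359) and that of day 14 to day 7 was 0.491 (0.339 to 0.695). Fgf10, a related ligand for the same receptor form, had 0, 3 and 1 UMIs. The 0 UMIs of day 4 allow up to 0.237 CPM by a limit of 3 counts, or 0.291 CPM by the exact 95% interval, and no fold was formed for Fgf10.

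Fgfr1, the main receptor for the FGF2 of the medium, had 1384, 1387 and 180 UMIs on days 4, 7 and 14. These counts are 109 CPM (104 to 115), 119 CPM (113 to 126) and 33.8 CPM (29.0 to 39.1). Days 4 and 7 were within 1.09-fold (1.01 to 1.18) of each other, and day 14 stood at 0.283 times the level of day 7 (0.241 to 0.331). Fgfr2 had few UMIs, 81, 69 and 62, for 6.39 CPM (5.07 to 7.94), 5.93 CPM (4.62 to 7.51) and 11.6 CPM (8.93 to 14.9). Its level on day 14 was 1.96 times that of day 7 (1.37 to 2.81), just short of 2-fold. On day 14 against day 7, Fgfr1 was lower and the value of Fgfr2 was higher.

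**Figure D1:**
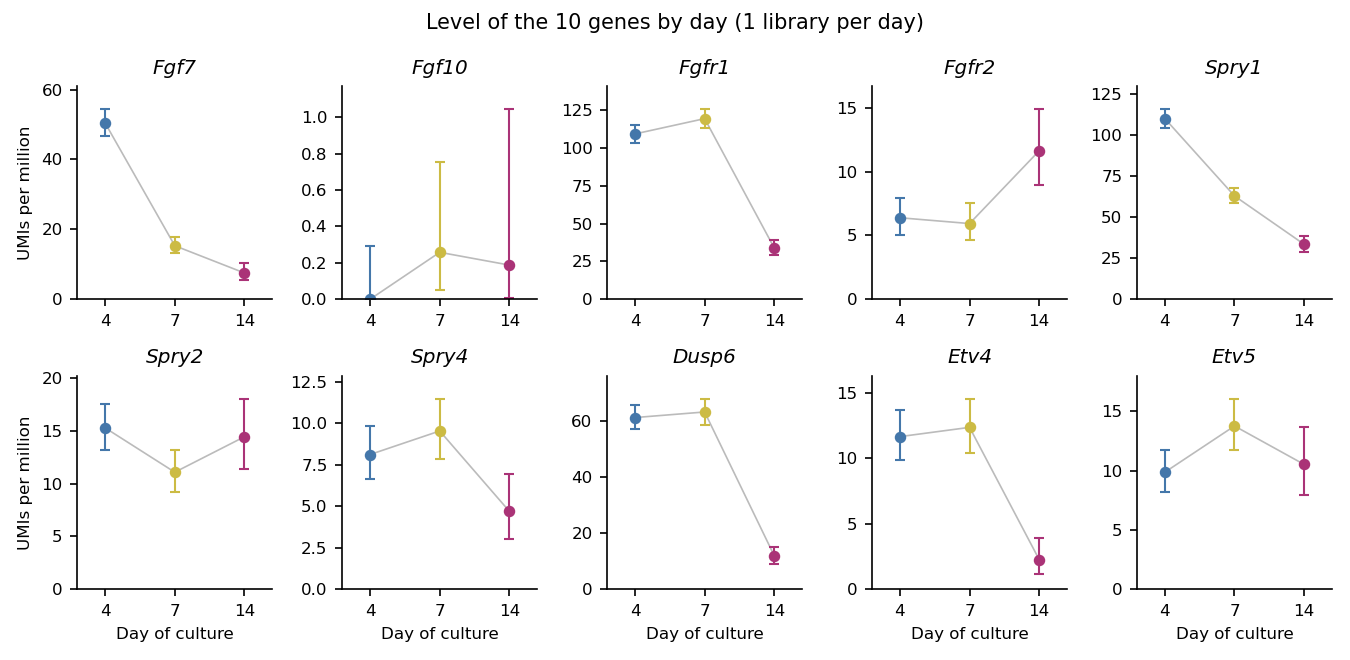
CPM (y axis, each panel from 0) of the 10 genes on days 4, 7 and 14 (x axis), with points for the summed level of all cells of the day and bars for exact 95% Poisson intervals, which cover counting error only. Fgfr1, Dusp6 and Etv4 stay near their day 4 level on day 7 and are lowest on day 14, while Fgf7 and Spry1 are already lower on day 7.

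Among the Sprouty genes, Spry1 had the steepest course from day 4 to day 14, with 1394, 731 and 178 UMIs on the 3 days. Its level was 110 CPM (104 to 116) on day 4, 62.9 CPM (58.4 to 67.6) on day 7 and 33.4 CPM (28.7 to 38.7) on day 14. Each step was less than 2-fold, with ratios of 0.572 (0.522 to 0.626) and 0.532 (0.449 to 0.627). Spry2 had 194, 129 and 77 UMIs, or 15.3, 11.1 and 14.5 CPM, and the intervals of days 4 and 14 overlapped. Spry4 had 103, 111 and 25 UMIs, or 8.12, 9.55 and 4.70 CPM, and its ratio of day 14 to day 7 was 0.492 (0.305 to 0.764).

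Dusp6, the phosphatase for ERK, had 774, 733 and 63 UMIs on the 3 days. The levels were 61.1 CPM (56.8 to 65.5), 63.0 CPM (58.6 to 67.8) and 11.8 CPM (9.09 to 15.1). Day 14 stood at 0.188 times the level of day 7 (0.143 to 0.243). Etv4 followed the same order with 148, 144 and 12 UMIs, or 11.7, 12.4 and 2.25 CPM, and a ratio of 0.182 (0.0919 to 0.328) between the last days. Etv5, the close relative of Etv4, had 125, 160 and 56 UMIs, or 9.86, 13.8 and 10.5 CPM. Its ratio of day 14 to day 7 was 0.764 (0.553 to 1.04), an interval that spans equal levels. After every cell was thinned to 1500 UMIs, Etv5 had 6 and 30 UMIs on days 14 and 7 and was called lower, with a log2 ratio of -1.05. Summed over the 6 feedback genes the level was 216 CPM (208 to 224) on day 4, 173 CPM (165 to 180) on day 7 and 77.2 CPM (69.9 to 85.0) on day 14. Spry1 made up 1394 of the 2738 UMIs of this sum on day 4 and 731 of 2008 on day 7. The values of Spry4, Dusp6, Etv4 and Etv5 were not lower on day 7 than on day 4.

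A gene was called here when its level, with 1 CPM added to both sides, differed at least 2-fold and it had at least 20 UMIs over both groups. Between days 4 and 7, 1 of the 10 genes, Fgf7, was called lower and 0 higher. Fgf10 had too few UMIs for a call. The same rule called 2.76% of the 12954 genes tested lower and 2.25% higher on day 7. Between days 7 and 14, Fgfr1, Dusp6 and Etv4 were called lower and 0 of the 10 higher. The background was larger there, with 14.0% of 12656 genes called lower and 10.1% higher on day 14. Fgf7, Spry1, Spry4 and Fgfr2 lay just outside the limit, with log2 ratios of -0.94, -0.89, -0.89 and 0.87. After thinning every cell to 1500 UMIs, Fgf7, Spry4 and Etv5 were also called lower and Fgfr2 higher. Both comparisons use the day 7 library.

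Genes with at least 100 UMIs had a median log2 ratio of -0.18 between days 14 and 7. Dividing all ratios by this median changed the split of calls over all genes from 1279 higher and 1771 lower to 1659 higher and 1373 lower. Fgfr1, Dusp6 and Etv4 were called lower by either scaling, with log2 ratios of -1.79, -2.32 and -2.04 before it. Fgfr2, at a log2 ratio of 0.87, was called higher by this scaling, at 1.05. The median log2 ratio of the 9 genes tested was -0.89, beside -0.13 for all genes tested. For days 7 and 4 the median of the 9 was 0.05, beside 0.09.

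Markers of other cells also differed by day. The 8 macrophage markers summed to 8.91, 26.1 and 215 CPM, of which Lyz2 made 200 CPM on day 14, and C1qb was at 0 there. In the Leydig-like and differentiating Leydig-like cells of day 14 the list stood at 9.86 and 10.3 CPM. The 8 germ cell markers summed to 138, 24.3 and 60.3 CPM, with Prm1 and Tnp1 leading on day 4. The 8 endothelial markers summed to 89.3, 120 and 35.9 CPM, most of it Cdh5 (77.7, 111 and 22.3 CPM), while Cldn5 was at 0 on days 7 and 14 and Pecam1 on day 14. The 7 Sertoli markers summed to 933, 1191 and 2783 CPM, nearly all Ctsl, and Amh was at 0 on every day. Their part in the differences between days was not tested.

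The levels by cell state showed where the transcripts lay. Of the 9 state-by-day groups with at least 50 cells, Fgfr1 was highest in ECM myofibroblast-like cells of day 7, at 137 CPM (129 to 146), and the interval lay above that of the next group. The 3 groups of day 4 and the other groups of day 7 lay between 82.6 and 114 CPM, each overlapping its neighbour. Differentiating Leydig-like cells of day 14 followed at 47.2 CPM (38.0 to 57.8), and Leydig-like cells were lowest at 26.2 CPM (20.9 to 32.4). These last steps were apart.

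Dusp6 had a similar order. ECM myofibroblast-like cells of day 7 stood at 72.9 CPM (66.8 to 79.4), the largest 2 groups of day 4 at 61.1 and 61.9 CPM, and proliferating cells of day 7 at 59.5 CPM. Differentiating Leydig-like cells held 25.9 CPM (17.7 to 36.6) on day 7 and 22.6 CPM (16.4 to 30.3) on day 14. Leydig-like cells were lowest at 5.54 CPM (3.29 to 8.76), from 18 UMIs. Every neighbouring pair in the order of the 9 groups overlapped, since interstitial progenitor-like cells with 5 UMIs (20.4 CPM, 6.62 to 47.6) stood just above Leydig-like cells.

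Fgf7 and Spry1 had another order. The 3 groups of day 4 held Fgf7 at 49.8 to 69.4 CPM, and differentiating Leydig-like cells of day 7 came next at 35.6 CPM (25.9 to 47.8). Proliferating and ECM myofibroblast-like cells of day 7 held 15.8 and 11.6 CPM, and Leydig-like cells held 3 UMIs, or 0.924 CPM (0.191 to 2.70). Spry1 stood at 114 CPM in differentiating myofibroblast-like cells of day 4 and at 104 CPM (86.4 to 123) in differentiating Leydig-like cells of day 7. The lowest values were 54.7 CPM (49.5 to 60.3), in ECM myofibroblast-like cells, and 10.5 CPM (7.25 to 14.6), in Leydig-like cells, the only step of its order that was apart.

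Fgfr2 had its highest value in the 82 interstitial progenitor-like cells of day 4, at 28.6 CPM (11.5 to 58.8), but from 7 UMIs. Leydig-like cells held 11.1 CPM (7.77 to 15.4) and differentiating Leydig-like cells of day 14 held 13.3 CPM (8.71 to 19.5). The lowest group was proliferating cells of day 4, with 9 UMIs and 3.12 CPM (1.43 to 5.93). All neighbours in its order overlapped. Etv4 had 2 UMIs in Leydig-like cells, 0.616 CPM (0.0746 to 2.23), and 13.5 to 13.6 CPM in ECM myofibroblast-like and proliferating cells of day 7. The range of Etv5 over the 9 groups was 8.16 to 16.2 CPM, that of Spry2 was 4.08 to 21.5 CPM and that of Spry4 was 0 to 11.4 CPM, with all neighbours overlapping.

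**Figure D2:**
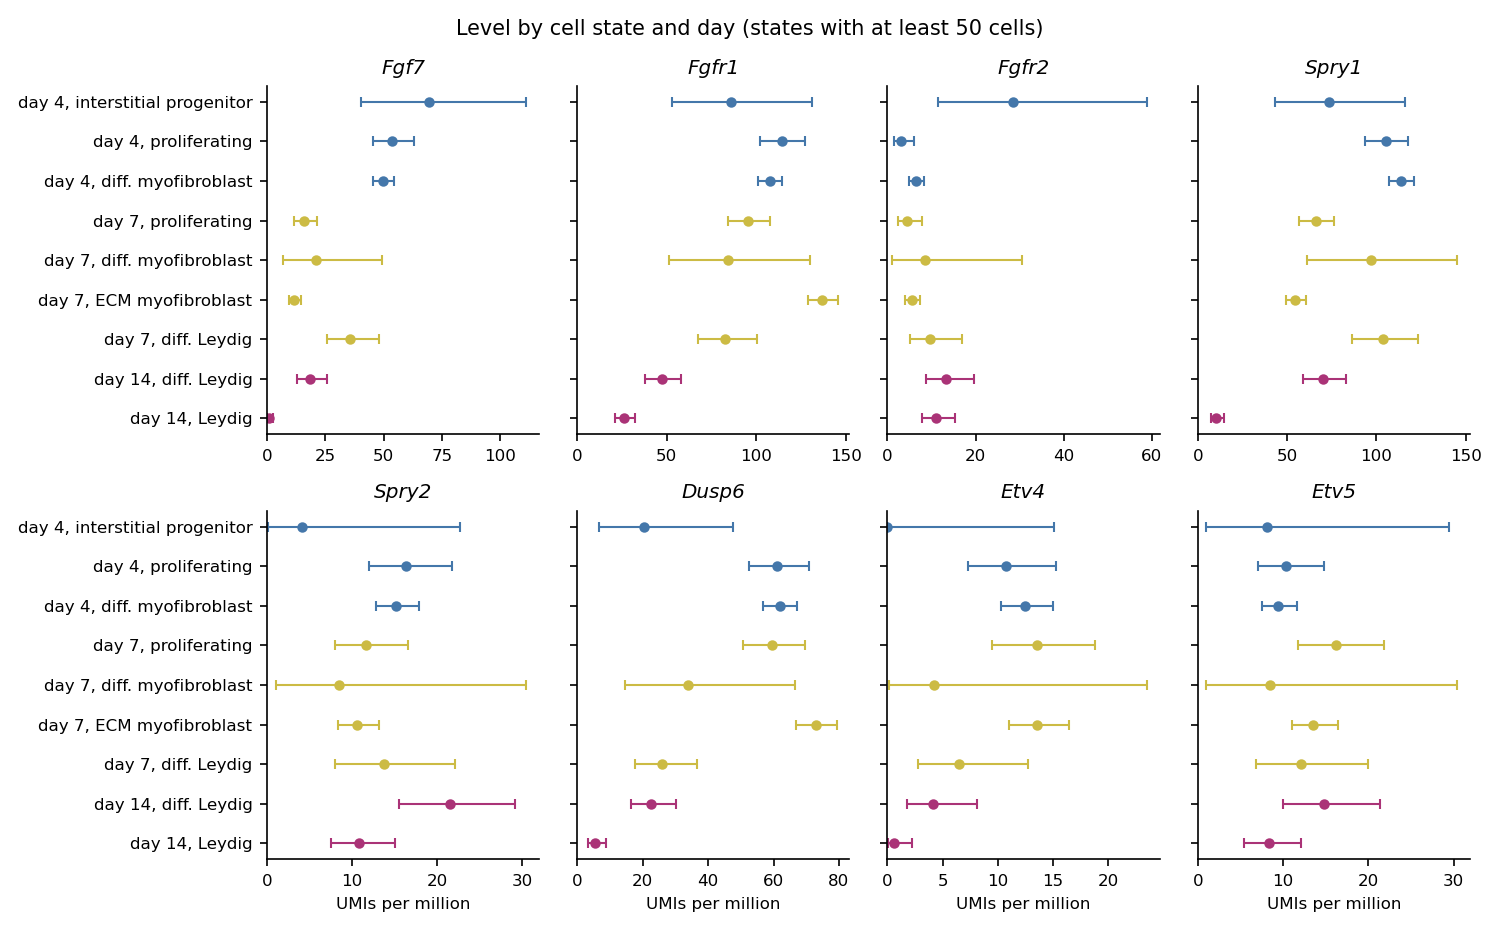
CPM (x axis, each panel from 0) of 8 of the 10 genes in the 9 state-by-day groups with at least 50 cells (y axis, blue for day 4, yellow for day 7, purple for day 14), with exact 95% Poisson intervals of the counts. Fgfr1 and Dusp6 are highest in ECM myofibroblast-like cells of day 7, and Leydig-like cells are lowest for Fgf7, Fgfr1, Spry1, Dusp6 and, apart from the interstitial progenitor-like group with 0 UMIs, Etv4.

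On day 4, proliferating progenitor-like cells were compared with differentiating myofibroblast-like cells, which asks whether levels differed between dividing and other cells. Of the 10 genes 0 were called, where the rule called 5.37% of 11504 genes higher and 1.88% lower in the proliferating cells. Dusp6 stood at 61.1 and 61.9 CPM (ratio 0.987, 0.828 to 1.17), and Fgfr1 at 114 CPM (102 to 127) and 108 CPM (101 to 114). The summed feedback genes had a ratio of 0.976 (0.890 to 1.07). Fgfr2, with 9 and 60 UMIs, had a ratio of 0.480 (0.209 to 0.973). On day 7, proliferating cells against ECM myofibroblast-like cells also gave 0 calls of 10, with 5.79% of 11404 genes called higher and 2.38% lower. Fgfr1 stood at 95.3 and 137 CPM, a ratio of 0.696, Dusp6 had a ratio of 0.817 (0.680 to 0.977), and that of the summed feedback genes was 1.00 (0.897 to 1.11). On day 4 the germ cell markers summed to 93.3 CPM in the proliferating cells and 29.4 CPM in the myofibroblast-like cells, and their part was not tested.

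Proliferating cells were the one large state present on both day 4 and day 7. In them Fgf7 had 155 UMIs on day 4 and 42 on day 7, or 53.8 and 15.8 CPM, a ratio of 0.294 (0.204 to 0.416), close to the 0.304 of all cells. It was the 1 gene of 10 called lower, and 0 were called higher, beside 2.77% and 3.24% of 10344 genes. Spry1 had 303 and 175 UMIs, or 105 and 65.9 CPM, a ratio of 0.627 (0.518 to 0.758). Dusp6 stood at 61.1 and 59.5 CPM, a ratio of 0.975 (0.782 to 1.22).

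On day 7 the differentiating Leydig-like cells were compared with the ECM myofibroblast-like cells of the same library. Fgf7 was called higher, with 44 and 85 UMIs at 35.6 and 11.6 CPM, a ratio of 3.06 (2.08 to 4.46). Dusp6 was called lower, with 32 and 533 UMIs at 25.9 and 72.9 CPM, a ratio of 0.355 (0.241 to 0.508). The other 8 of the 10 were not called, and over all 11099 genes the rule called 5.36% higher and 5.01% lower. Spry1, at 104 and 54.7 CPM, had a ratio of 1.89 (1.54 to 2.32), and Fgfr1, at 82.6 and 137 CPM, had one of 0.603 (0.487 to 0.740). Etv4 had 8 and 99 UMIs and a ratio of 0.478 (0.201 to 0.980). The summed feedback genes stood at 171 and 176 CPM, so Spry1 and Dusp6 differed in opposite directions within a nearly equal sum. ECM myofibroblast-like cells fell in a shallower cluster of 673 cells and a deeper one of 578, in which Dusp6 stood at 61.4 and 76.1 CPM and Fgfr1 at 105 and 146 CPM.

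On day 14 the Leydig-like cells were compared with the differentiating Leydig-like cells. Spry1 had 34 UMIs in the former and 137 in the latter, or 10.5 and 70.2 CPM, a ratio of 0.149 (0.0993 to 0.218). Dusp6 had 18 and 44 UMIs, or 5.54 and 22.6 CPM, a ratio of 0.246 (0.134 to 0.434). Fgf7 had 3 and 36 UMIs, a ratio of 0.0501 (0.00987 to 0.158). These 3 of the 10 were called lower and 0 higher, with Fgf10 and Etv4 under 20 UMIs, beside 5.78% of 10242 genes called lower and 4.09% higher. Fgfr1 stood at 26.2 and 47.2 CPM, a ratio of 0.555 (0.408 to 0.754), and Spry2 at 10.8 and 21.5 CPM, a ratio of 0.501 (0.310 to 0.803). Fgfr2 stood at 11.1 and 13.3 CPM, a ratio of 0.832 (0.489 to 1.43). The 6 feedback genes summed to 39.7 CPM in Leydig-like cells and 139 CPM in differentiating Leydig-like cells, a ratio of 0.285 (0.229 to 0.353). The states differed in depth, with median counts of 5575.5 and 2206.5 UMIs per cell, and the part of depth was not tested beyond thinning. After every cell was thinned to 1500 UMIs, Fgf7 had 0 and 9 UMIs and Dusp6 4 and 10, under the 20 UMIs that a call needs.

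Within differentiating Leydig-like cells, day 14 was compared with day 7. Different clusters held most of this state on the 2 days, with 282 of the 314 cells of day 7 in a cluster led by Eln, Cilp and Mfap4 and 527 of the 538 cells of day 14 in a cluster led by Slc38a5, Gpx3 and Mmp2. Of the 10 genes 0 were called, with Fgf10 and Etv4 under 20 UMIs, beside 5.01% of 9370 genes called higher and 6.57% lower. Fgfr1 had 102 UMIs on day 7 and 92 on day 14, or 82.6 and 47.2 CPM, a ratio of 0.571 (0.426 to 0.765). Fgf7 went with a ratio of 0.518 (0.324 to 0.824) and Spry1 with 0.678 (0.529 to 0.869). Dusp6 stood at 25.9 and 22.6 CPM, a ratio of 0.871 (0.540 to 1.42), an interval apart from that of the whole libraries (0.143 to 0.243). ECM myofibroblast-like cells, which had the highest Dusp6 level of the 9 groups on day 7, numbered 0 of 973 on day 14. This allows a share of up to 0.378% by the exact interval, which takes the 973 barcodes of 1 library as separate cells. Of these, 504 shared the first 11 bases with another, so the limit may be too low. The part of this state in the Dusp6 ratio of the whole libraries was not tested.

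**Figure D3:**
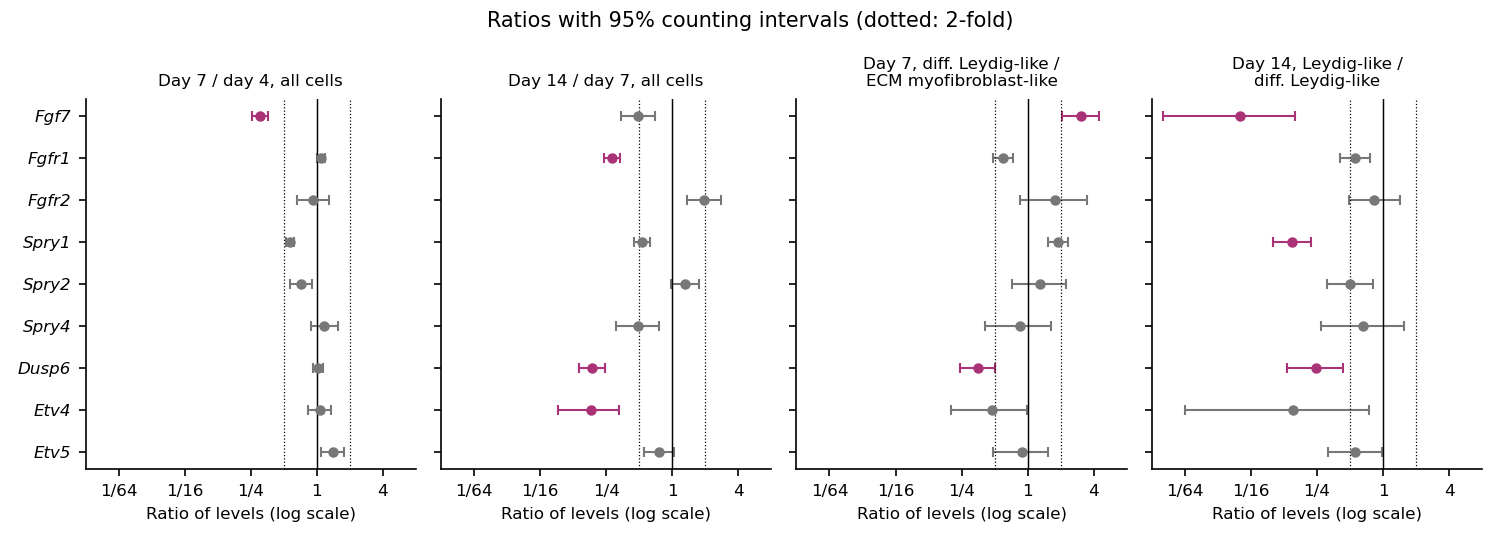
Ratio of levels (x axis, log scale) of 9 genes (y axis) in 4 comparisons, with exact 95% intervals of the counts. Purple marks genes called at least 2-fold, and dotted lines mark 2-fold. Dusp6 is called lower in 3 of the panels, while Etv5 is called in none without thinning of the cells.

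The share of cells with a UMI of any of the 6 feedback genes was lowest on day 14, as was the share with a UMI of Fgfr1. After thinning to 1500 UMIs, which left out 1361 shallower cells (753, 429 and 179 of the 3 days), 26.2% of cells on day 4, 20.7% on day 7 and 9.19% on day 14 had a UMI of any of the 6 feedback genes. Unthinned, the shares were 47.8%, 46.5% and 23.9%. For Fgfr1 the thinned shares were 14.1% (12.6 to 15.6, Clopper-Pearson), 14.6% (13.0 to 16.3) and 4.16% (2.88 to 5.79), and the unthinned ones 30.1%, 35.8% and 14.5%. With barcodes that share 11 bases joined, the unthinned Fgfr1 shares were 40.3%, 48.5% and 23.0%. None of the states could be taken to lack these transcripts, so the share that free RNA could give was not set. Shares are those of cells with a UMI and not of cells that express the gene.

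Over the 9 state-by-day groups, the log2 level of Fgfr1 went most closely with that of Dusp6 (Pearson r = 0.92, 9 groups), and Fgf7 with Spry1 (r = 0.91). Spry4 and Etv4 had r = 0.88 and Dusp6 and Etv4 r = 0.84, while Fgfr2 and Etv4 had r = -0.87. These values rest in part on groups with few UMIs. Spry4, Etv4 and Fgfr2 had 0, 0 and 7 UMIs in interstitial progenitor-like cells of day 4. In differentiating myofibroblast-like cells of day 7 they had 1, 1 and 2. Among 8211 genes with at least 20 CPM in a group, the closest to Fgfr1 was Abcg1 (r = 0.98), a cholesterol transporter, then Cast and Wwp2. The closest to Dusp6 were Oaf, Fchsd2 and F2r, the thrombin receptor, to Spry1 Tmem204, Cldn15 and Tnrc6a, and to Fgf7 Csnk1e, Zeb1 and Rbpms. For Etv4 they were Klf10, Lsm12 and Smad7, an inhibitor of TGF-beta signalling. For the other 4 the closest were Vrk3 (Fgfr2), Pik3ca (Spry2), Cd2bp2 (Spry4) and Cxxc1 (Etv5). The 9 points share 3 libraries and differ in depth, and these values are descriptions of the closest of many genes.

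The rest of the pathway was read from lists of its other ligands, receptors and co-receptors, heparan sulfate enzymes, cascade members, inhibitors and ERK-responsive genes. Of 20 other ligands 11 were in the table and 4 had enough UMIs between days 7 and 14. Over all genes tested between these days, 14.0% were called lower and 10.1% higher. Fgf2 itself, the ligand also supplied in the medium, had 1554, 1302 and 97 UMIs, and 3 of the 4 were called lower on day 14. Its level was 112 CPM on day 7 and 18.2 CPM on day 14, a ratio of 0.163 (0.131 to 0.200). Fgf1 had 77, 30 and 4 UMIs and Fgf21 had 94, 26 and 0. Within differentiating Leydig-like cells Fgf2 was called lower too, at 78.5 CPM on day 7 and 27.7 CPM on day 14.

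Of the other receptors and co-receptors, 13 of 19 were tested between days 7 and 14. Of these, 6 were called lower and 1 higher, beside 14.0% and 10.1% of all genes tested. The lower ones with the most UMIs were Sdc2 (233 and 106 CPM on days 7 and 14), Flrt2 (159 and 38.3 CPM) and Sdc1 (56.5 and 26.3 CPM). Sdc1 and Sdc2 are syndecans, which carry heparan sulfate, and FLRT2 binds FGF receptors. Fgfrl1, a receptor without a kinase domain, stood at 14.9, 19.4 and 21.2 CPM on the 3 days, while Fgfr3 had 3, 3 and 1 UMIs and Fgfr4 had 0 on each day. Between days 4 and 7, of 13 tested, the glypican Gpc1 was called higher (34.9 and 87.2 CPM) and the syndecan Sdc4 lower (118 and 34.1 CPM). Over all genes tested, 2.25% were called higher there and 2.76% lower. On day 7 the rule called 5.36% of all genes higher and 5.01% lower in differentiating Leydig-like against ECM myofibroblast-like cells. Of the 12 receptors and co-receptors tested there, 2 were called higher and 2 lower. The higher ones were Sdc4 (58.3 and 20.8 CPM) and the glypican Gpc3 (39.7 and 9.57 CPM), and the lower ones were Flrt2 (65.6 and 163 CPM) and Sdc3 (19.4 and 42.8 CPM).

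On day 14 against day 7, 4 of 11 heparan sulfate enzymes were called lower and 1 higher, beside 14.0% and 10.1% of all genes. Ext1, which builds the chain, had 304 and 92.4 CPM on days 7 and 14, Hs6st2 261 and 88.6 CPM and Glce 47.2 and 17.5 CPM. Hs3st1, a sulfotransferase, had 3 UMIs on day 7 and 164 on day 14, a ratio of 119 (40.1 to 585). It stood at 43.7 CPM in Leydig-like cells and 11.3 CPM in differentiating Leydig-like cells of day 14. Among the cascade genes, Nras and Rps6ka1 were called lower and Ksr1 higher. Nras, which codes for a RAS protein, stood at 89.9 and 35.1 CPM on days 7 and 14 and the scaffold Ksr1 at 4.47 and 14.8 CPM. Between days 4 and 7, 0 of 20 cascade genes and 1 of 10 heparan sulfate enzymes were called, Hs6st1, which was lower (60.4 and 23.4 CPM). The shares over all genes were 2.76% lower and 2.25% higher. On day 7 Hs6st1 was called higher in differentiating Leydig-like than in ECM myofibroblast-like cells (53.4 and 18.1 CPM), as was Sulf2, which trims sulfate from the chain (125 and 57.7 CPM).

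Of 14 other inhibitors tested between days 7 and 14, 4 were called lower and 2 higher, beside 14.0% and 10.1% of all genes. The phosphatase Dusp4, a nuclear relative of Dusp6, had 68.2 and 16.7 CPM on days 7 and 14, and Rasa1, which switches RAS off, 179 and 37.8 CPM. The higher ones were Errfi1, an inhibitor of EGF receptors, with 88.3 and 192 CPM, and the stress-induced phosphatase Dusp1, with 18.0 and 37.2 CPM. Both had been called lower on day 7 against day 4, where Errfi1 stood at 231 and 88.3 CPM and Dusp1 at 52.1 and 18.0 CPM. Dusp5, another ERK phosphatase, was called lower at both steps, at 45.4, 15.6 and 4.88 CPM on days 4, 7 and 14. In Leydig-like cells against differentiating Leydig-like cells 2 of 10 inhibitors tested were called lower and 0 higher, beside 5.78% and 4.09% of all genes. These were Errfi1, at 75.5 and 389 CPM, and Dusp5, at 1.85 and 10.3 CPM. Within differentiating Leydig-like cells 3 of 10 inhibitors tested were called higher on day 14 than on day 7 and 1 lower. Over all genes the rule called 5.01% higher and 6.57% lower. The higher ones were Errfi1 (389 and 97.9 CPM on days 14 and 7), Dusp1 (51.3 and 15.4 CPM) and Dusp5 (10.3 and 2.43 CPM). Dusp5 rested on 20 and 3 UMIs and went opposite to its direction over all cells. The lower one was Rasa1, at 44.6 and 115 CPM. In differentiating Leydig-like against ECM myofibroblast-like cells of day 7, 3 of 14 inhibitors were called lower and 0 higher. All 3 were Dusp genes, and the rule called 5.01% of all genes lower and 5.36% higher. Dusp4 stood there at 35.6 and 80.8 CPM, Dusp5 at 2.43 and 17.5 CPM and Dusp10 at 0 and 59 UMIs.

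Of the 10 other ERK-responsive genes, 6 were called lower and 1 higher on day 14 against day 7. The rule called 14.0% of all genes lower there and 10.1% higher. The median log2 ratio of the 10 was -1.49, beside -0.13 for all genes tested. The cyclin Ccnd1 stood at 307 and 75.7 CPM on days 7 and 14, Phlda1 at 37.0 and 9.58 CPM and Myc at 31.7 and 13.9 CPM. Etv1, the relative of Etv4 and Etv5, was the higher one, at 3.27 and 8.64 CPM. Egr1, an immediate early gene, stood at 131, 91.6 and 144 CPM on the 3 days. Between days 4 and 7, 1 of the 10 was called, Ier3, which was lower (78.9 and 25.0 CPM). Of all genes tested 2.76% were called lower there and 2.25% higher. In Leydig-like against differentiating Leydig-like cells 4 of 6 tested were called lower and 0 higher, among them Egr1 (90.6 and 235 CPM), Ccnd1 (32.3 and 135 CPM) and Myc (8.63 and 21.5 CPM). For that comparison the median log2 ratio of the 6 was -1.24, beside -0.05 for all genes. The rule called 5.78% of all genes lower there and 4.09% higher. In differentiating Leydig-like against ECM myofibroblast-like cells of day 7, 4 of 10 were called lower and 1 higher. The shares over all genes were 5.01% lower and 5.36% higher. Ccnd1 stood at 145 and 339 CPM, Fosl1, an AP-1 subunit, at 5.67 and 27.1 CPM and Ier3, the higher one, at 45.3 and 22.0 CPM.

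**Figure D4:**
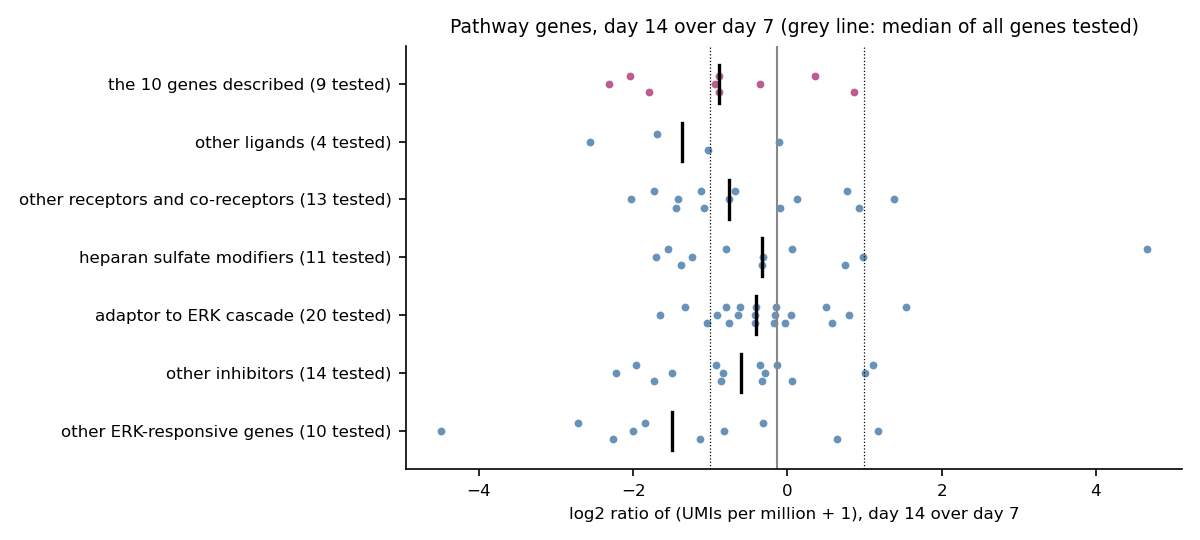
log2 ratio of CPM plus 1, day 14 over day 7 (x axis), for the genes of each pathway list with at least 20 UMIs (y axis, 1 point a gene), with a black bar at the list's median and dotted lines at 2-fold. The median is -1.49 for the ERK-responsive list and -0.89 for the 9 genes in purple, beside -0.13 for all genes tested (grey line).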

How the data were processed

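Per the study's methods and the labels, the authors used STAR against GRCm38, and Drop-seq tools turned the aligned reads into UMI counts for each barcode and gene. The submitters' processing notes name STAR 2.5.2a, Picard 2.6.0 and SAMtools 1.2, and the annotation release is not given in the sources used here. The deposited values are raw UMI counts, and barcodes under 500 genes or over 10% mitochondrial UMIs are left out of the merged table. Its 495 columns of day 0 belong to no sample used here and were left out, and its 6124 other columns held the same counts as the tables per day.

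Counts were summed per group and scaled to 1000000. Seurat 5.3.0 in R 4.3.3 clustered the cells (2000 variable genes, 20 components, 20 neighbours, resolution 0.8). A cluster took a name from at least 3 markers of a list at 1.5 times the level of other cells, thresholds set after the clusters were seen, so names may differ from the study's. All 10 genes are named, with the 3 called genes of most UMIs per pathway list and direction and the 3 genes most like each of them. A cascade gene is not reported here. Other genes named with counts or levels (Fgfrl1, Fgfr3, Fgfr4, Egr1 between days, cell markers) were chosen after their values were seen. Scrublet in scanpy 1.11.5 marked 0, 2 and 1 doublets, under 0.5% of cells, so the caller did not work here. Intervals cover counting error at 95%. The comparison was tested on simulated data. The genes and lists were chosen with earlier results of these data known. Python 3.11.15, numpy 2.4.6, scipy 1.17.1, pandas 2.3.3 and matplotlib 3.10.9 were used.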

Additional observations from a re-analysis of the deposited data

Results flagged for a closer look

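Barcodes that the study's filter removed also carried the 10 genes, a signal in data that the comparisons do not use. The 320 such barcodes of day 4 held 59 UMIs of them, the 229 of day 7 held 35 and the 327 of day 14 held 19. Summed over the 10 genes the level in these barcodes was 367, 292 and 153 CPM for days 4, 7 and 14, in the same order of days as over all barcodes. These barcodes entered no comparison of the report except the alternative without a cell filter.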

How the results depend on the processing

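Of the 122 alternatives to the 10 called ratios, 119 kept their direction and stayed at least 2-fold, and 0 reversed. With pathway genes kept in the clustering, comparisons that use differentiating Leydig-like cells of day 7 had no value, since the cluster led by Eln was unnamed. The alternatives include removal of the called doublets, which took out only 0, 2 and 1 cells of the 3 days. The alternatives that did not keep the call concern Leydig-like against differentiating Leydig-like cells. There Fgf7 (log2 ratio -4.07) and Dusp6 (-1.27) had under 20 UMIs after thinning, and Fgf7 (-3.34) was under the minimum of 50. Counts of genes called moved as follows, and the cause was not tested. Between days 14 and 7 the count was 5 in place of 3 with equal weight per cell (also Fgf7 and Spry4 lower) and 7 after thinning to 1500 UMIs (also Fgf7, Spry4 and Etv5 lower, Fgfr2 higher). For Leydig-like against differentiating Leydig-like cells it was 5 in place of 3 with equal weight per cell, with a state per cell, with the highest 6% of doublet scores removed and with barcodes that share 11 bases summed, and 1 after thinning. Spry2 was among the added genes in each of these that rose to 5. For differentiating Leydig-like against ECM myofibroblast-like cells it was 4 in place of 2 with 30 components (also Fgfr1 and Etv4 lower). Where the main count was 0, equal weight per cell gave 1 in proliferating against myofibroblast-like cells of day 4 (Fgfr2) and 2 in differentiating Leydig-like cells between days 14 and 7, thinning gave 2 in the latter (Fgf7 and Fgfr1 both times) and a state per cell gave 1 (Fgf7). For proliferating cells between days 7 and 4 equal weight per cell gave 3 in place of 1. The summed barcodes, the median ratio scaling and the doublet scores were alternatives chosen after seeing the data. No paired analysis was possible because each day has 1 library, and for the same reason no replicate could be left out. Members with few UMIs (Fgf10, Fgfr2, Spry4 and Etv4) are limited by depth.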
